A study of Mus musculus with 6 samples.

Results

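The 10 genes described here are Fos, Fosb, Fosl2, Jun, Junb, Egr1, Egr2, Ier2, Nr4a1 and Myc, a set of immediate early genes taken by gene symbol from the 51888 rows of the count tables. All 10 were found, and 9 passed the filter on low counts, the exception being Fosb. They were measured by RNA sequencing of whole hearts from 6 mice of the C57BL/6 strain background, with 1 library of counts for each mouse. The 3 controls carried the loxP-flanked Elac2 gene without cre (L/L, labelled Elac2 +/+), and the 3 knockouts carried it with cre (L/L, cre, labelled Elac2 -/-). Cre was driven by the muscle creatine kinase promoter, which is active in heart and skeletal muscle. No group with cre alone was analysed here, so effects of cre and of losing Elac2 cannot be told apart. The edgeR p-values set the genotype difference against the spread between these 3 mice a group. That spread was estimated in part from all tested genes. No label spells out an age or a sex. Levels are CPM, counts rescaled to a common library size after TMM normalization. Changes are log2 fold changes of knockout against control from edgeR's quasi-likelihood test. A gene was called where its Benjamini-Hochberg adjusted p, taken over all tested genes, was below 0.05.

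Immediate early genes are transcribed within minutes of a growth factor, stretch, calcium or stress signal, from regulators that are already present in the cell and without new protein synthesis. Most encode transcription factors. FOS and JUN proteins pair to form AP-1, EGR proteins are zinc finger factors, NR4A1 is an orphan nuclear receptor, and MYC pairs with MAX to drive growth genes. Their mRNAs are short-lived, and in the heart they respond to pressure load, adrenergic drive and handling of the tissue.

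Elac2 was at 15.0, 14.0 and 13.0 CPM in controls and at 5.36, 5.63 and 6.52 CPM in knockouts (log2 fold change -1.27, SE 0.15, edgeR adjusted p = 2.12e-04). The libraries held 9850100 to 14461110 counts, of which mitochondrial-encoded features took 49.3% to 61.1% in controls and 33.3% to 36.7% in knockouts. Of 6 cardiomyocyte markers 3 were lower (Myh6, Actc1 and Ryr2) and 0 higher, where 17.8% of all tested genes were lower. Tnnt2, Tnni3 and Myl2 were not called (log2 fold changes -0.27, -0.37 and -0.39). The summed level of the 6 was 34755 to 37132 CPM in controls and 17422 to 18471 CPM in knockouts. Myh6 took the largest part of it, with 18402 to 20235 CPM in controls and 7348 to 8177 CPM in knockouts. Some markers of other cell types were lower too. Endothelial markers were lower for 3 of 6 (487 to 573 CPM summed in controls, 369 to 424 in knockouts), smooth muscle and pericyte markers for 2 of 6 (781 to 999.6 and 512 to 564 CPM) and platelet markers for 2 of 3 tested, while 0 of 6 fibroblast and 0 of 6 macrophage and leukocyte markers were called. Skeletal muscle markers were lower for 2 of 2 tested (908 to 1034 CPM summed in controls, 230 to 314 in knockouts). Most of that sum was Ckm, the muscle creatine kinase gene. The part of all these markers in the results was not tested. In whole tissue, fewer cells of a type, less RNA per cell and changes of single genes cannot be told apart. The TMM-scaled median log2 fold change of all genes was -0.01, and with library size alone it was 0.68, so changes are relative to the bulk of tested genes.

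The sequence before the transcript start was in the RefSeq promoter table (GRCm38.p6) for 7 of the 10 genes, all but Egr1, Ier2 and Myc. The windows of Fos, Egr2 and Nr4a1 are shown because these genes carried the widest spread among libraries (Fos), a rise (Egr2) and a fall (Nr4a1). Each is the 250 bases before a start, 5′ to 3′ on the plus strand, and capitals mark TGACG on either strand, the core of the cyclic AMP response element, and the CArG box, which serum response factor binds. The Fos window is chr12:85473640-85473889, the Egr2 window is chr10:67537619-67537868, from 1 of several annotated starts, and the Nr4a1 window is chr15:101266596-101266845.
Fos: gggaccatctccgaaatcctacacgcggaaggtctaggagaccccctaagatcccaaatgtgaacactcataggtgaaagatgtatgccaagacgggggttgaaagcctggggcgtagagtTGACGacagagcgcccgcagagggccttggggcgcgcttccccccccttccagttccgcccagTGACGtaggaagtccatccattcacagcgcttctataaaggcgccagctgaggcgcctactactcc
Egr2: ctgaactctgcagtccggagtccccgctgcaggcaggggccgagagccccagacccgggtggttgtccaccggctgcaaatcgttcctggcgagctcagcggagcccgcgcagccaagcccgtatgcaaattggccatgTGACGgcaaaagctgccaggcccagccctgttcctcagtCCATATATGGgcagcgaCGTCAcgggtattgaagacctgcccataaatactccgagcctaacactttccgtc
Nr4a1: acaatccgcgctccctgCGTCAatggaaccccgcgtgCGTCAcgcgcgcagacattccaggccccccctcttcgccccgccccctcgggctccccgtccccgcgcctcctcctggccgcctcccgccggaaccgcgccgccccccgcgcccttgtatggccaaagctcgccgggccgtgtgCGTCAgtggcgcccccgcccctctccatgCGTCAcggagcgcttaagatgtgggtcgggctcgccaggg

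TGACG occurred on either strand in at least 1 window of 5 of the 7 genes, Fos, Fosb, Junb, Egr2 and Nr4a1, and in 17.9% of 32536 distinct windows of the same length. Egr2 has several windows and so more chances of a match. The Nr4a1 window held it 4 times and the Fos window 2 times. The CArG box occurred for 1 gene, Egr2, and in 1.48% of all windows. The EGR motif GCGGGGGCG occurred for Fosb, Fosl2 and Nr4a1, against 2.60% of all windows, and in Nr4a1 it does not overlap TGACG. The E-box CACGTG occurred for Egr2 only, in another of its windows, against 6.04% of all windows. The full cyclic AMP response element TGACGTCA, in which TGACG lies, had no match in these 7 genes. Nor did the NR4A motif AAAGGTCA. The AP-1 motif TGANTCA had none either. A match is a run of letters, not a bound site.

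Of the 9 tested members 3 were higher in knockout hearts, Myc, Egr2 and Jun, and 1 was lower, Nr4a1. Egr2 passed the filter on low counts only with its knockout reads, the group where it was higher. Fos, Fosl2, Junb, Egr1 and Ier2 did not pass the test. Among all 14302 tested genes 18.7% were called higher and 17.8% lower, 36.5% in all, so the share of members called is near that of all genes. The groups did not overlap for Jun, Nr4a1 and Myc among the tested members, while 50.6% of all tested genes had groups that did not overlap.

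**Figure D1:**
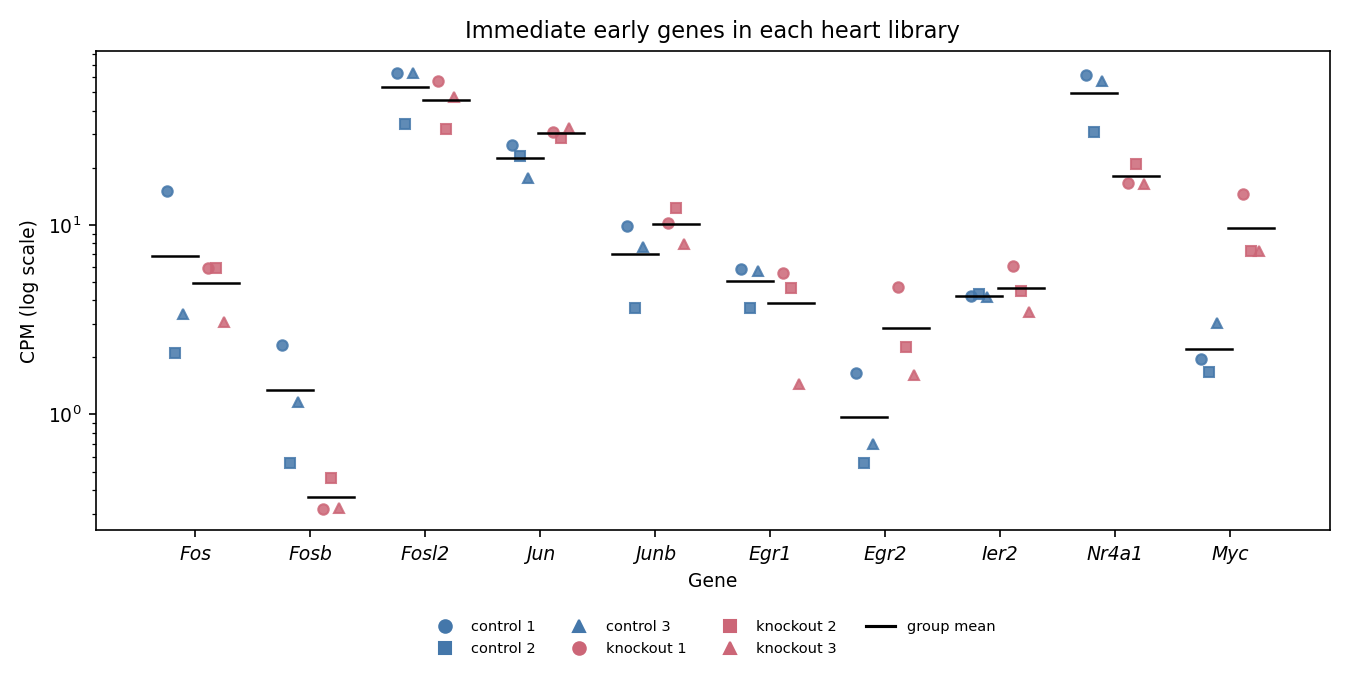
Level of each gene in each library, in CPM on a log axis, with circles, squares and triangles for mice 1, 2 and 3 of a group (blue control, red knockout) and black bars for group means. Myc and Nr4a1 are separated by genotype, whereas the Fos controls run from 2.11 to 15.0 CPM and enclose all 3 knockouts.

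Myc, the growth-promoting factor of ribosome and nucleotide synthesis genes (ENSMUSG00000022346.15, chromosome 15, 61985391 to 61990374 in mm10, plus strand), showed the largest rise among the tested members. Its level was 1.96, 1.67 and 3.02 CPM in controls and 14.5, 7.26 and 7.25 CPM in knockouts. All 3 knockouts were above each control, and knockout 1 was the highest library. The log2 fold change was 2.15 (SE 0.34, edgeR adjusted p = 0.00111), or 4.44-fold, with means of 2.21 ± 0.713 and 9.66 ± 4.18 CPM (SD, n = 3 each). The rise rested on 67 reads over the controls and 488 over the knockouts. It was called under each alternative that was run, with a log2 fold change of 1.73 without knockout 1.

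Nr4a1, a nuclear receptor induced by adrenergic and metabolic signals (ENSMUSG00000023034.6, chromosome 15, 101254269 to 101274795, plus strand), was the member that fell. Its controls were at 61.5, 31.0 and 57.3 CPM and its knockouts at 16.7, 21.1 and 16.5 CPM. Control 2 lay well below the other controls yet above each knockout. The log2 fold change was -1.47 (SE 0.23, edgeR adjusted p = 0.00108), a 2.76-fold fall, with means of 49.9 ± 16.5 and 18.1 ± 2.60 CPM (SD, n = 3 each). It was called lower under each alternative that was run, and with library size alone it was -0.80.

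Egr2, a zinc finger factor of the EGR family (ENSMUSG00000037868.15, chromosome 10, 67535475 to 67542188, plus strand), was at 1.66, 0.556 and 0.697 CPM in controls and 4.72, 2.26 and 1.61 CPM in knockouts. The groups touched, since control 1 was slightly above knockout 3. Its log2 fold change was 1.49 (SE 0.50, edgeR adjusted p = 0.0397), on 33 reads over the controls and 148 over the knockouts. The call was lost without control 2, control 3, knockout 1 or knockout 2 (edgeR adjusted p = 0.133, 0.130, 0.111 and 0.0549) and with limma-voom (adjusted p = 0.0579), and the log2 fold change ran from 0.91 without knockout 1 to 2.22 without control 1. Of the controls only control 1, with 22 reads, reached the filter's minimum count of 10, against 5 and 6 reads in controls 2 and 3. Egr2 was thus tested because of its knockout reads. It could not be tested with the stricter filter of 50 counts. Egr1, the family member best known as a load-induced factor, did not pass the test. It was at 5.87, 3.67 and 5.69 CPM in controls and at 5.57, 4.65 and 1.45 CPM in knockouts. The value of knockout 3, on 18 reads, was below that of every other library. Its log2 fold change was -0.36 (SE 0.39, 95% interval -1.23 to 0.52, edgeR adjusted p = 0.508), and 0.0039 without knockout 3.

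Jun, the AP-1 subunit that pairs with FOS proteins (ENSMUSG00000052684.4, chromosome 4, 95049034 to 95052222, minus strand), was at 26.5, 23.2 and 17.7 CPM in controls and 30.9, 28.8 and 32.4 CPM in knockouts. The groups did not overlap, and the knockouts lay close together. Its log2 fold change was 0.44 (SE 0.15, edgeR adjusted p = 0.0418), or 1.36-fold. The call was lost without control 2, control 3, knockout 2 or knockout 3 (edgeR adjusted p = 0.0983, 0.118, 0.0731 and 0.0998). Without control 3 the log2 fold change was 0.30. The Jun gene overlaps the antisense gene Junos, which had 6 to 15 reads per library against 152 to 583 for Jun. No source at hand says whether strand was used in counting, and reads from the overlap cannot be assigned to either gene with certainty.

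Junb, a JUN protein with a weaker activation domain, was at 9.86, 3.67 and 7.67 CPM in controls and 10.2, 12.3 and 7.89 CPM in knockouts. Control 2 was the lowest library, control 1 lay within the knockout range, and the groups overlapped. The log2 fold change of 0.50 (SE 0.30, 95% interval -0.16 to 1.164) did not pass the test (edgeR adjusted p = 0.215), though Junb was called higher with no filter and with library size alone. Junb lies across from Prdx2, an antioxidant enzyme gene on the opposite strand with 94.8 to 143.5 CPM, so its reads are uncertain. Ier2, a small nuclear protein gene of the early response, was at 4.21, 4.33 and 4.18 CPM in controls and 6.05, 4.47 and 3.46 CPM in knockouts. The controls agreed closely and lay within the knockout range, and the log2 fold change was 0.15 (SE 0.23, 95% interval -0.36 to 0.67, edgeR adjusted p = 0.640).

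Fos, the founding AP-1 member (ENSMUSG00000021250.13, chromosome 12, 85473890 to 85477273, plus strand), was the most variable of the tested members. Its controls were at 15.0, 2.11 and 3.37 CPM and its knockouts at 5.89, 5.92 and 3.06 CPM. Control 1, with 200 reads, was 7.13 times control 2, with 19 reads, and the controls enclosed the knockouts. The log2 fold change was -0.51 (SE 0.57, 95% interval -1.79 to 0.76, edgeR adjusted p = 0.513), and 0.88 (adjusted p = 0.110) without control 1. The difference of mean log2 CPM was -0.01, since a fit to counts and a mean of logs weight control 1 unequally.

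Fosl2, the FOS family member with the most reads here, was at 63.5, 33.9 and 63.7 CPM in controls and 57.2, 31.9 and 47.2 CPM in knockouts. In each group mouse 2 was the lowest, and the groups overlapped. The log2 fold change of -0.24 (SE 0.26, 95% interval -0.82 to 0.33) did not pass the test (edgeR adjusted p = 0.489). Fosb, whose protein can accumulate during lasting stimulation, had 31, 5 and 10 reads in controls and 6, 8 and 4 in knockouts. It was at 2.33, 0.556 and 1.162 CPM in controls and 0.318, 0.465 and 0.322 CPM in knockouts, so the groups did not overlap. It was below the filter. The authors' deposited table gave it -1.87 on the log2 scale, with an SE of 0.70 and an adjusted p of 0.0296, a call beside the 27.6% of 16267 genes called there. With no filter edgeR gave -1.86 (adjusted p = 7.06e-04), on 46 reads over the controls and 18 over the knockouts. That value cannot be set beside those of the main fit, since edgeR without the filter gave far smaller p-values for other genes too. The edgeR p of Nop58, for 1, went from 2.65e-08 to 4.93e-28. Fosb passed the filter without control 2 or without any 1 of the knockouts, where its edgeR adjusted p was 0.00918 to 0.0427. These fits all kept controls 1 and 3, the libraries with the most Fosb reads. It did not pass without control 1 or control 3. Entry into these fits thus depended on the group where it was higher, and their p-values are no separate support.

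The spread among libraries of 1 genotype was set against the genotype difference by the pooled SD of log2 CPM within groups. This SD had a median of 0.50 over the 9 tested members, from 0.22 for Jun to 1.08 for Fos, against a median of 0.22 over all tested genes. The genotype difference was 4.05 times this SD for Myc, 3.45 times for Nr4a1 and 2.14 times for Jun. It was 1.93 times for Egr2, 1.07 times for Junb, 0.72 times for Egr1, 0.47 times for Fosl2, 0.35 times for Ier2 and 0.01 times for Fos. The median ratio was 1.07 for the members and 1.79 for all tested genes. The difference was over 2 times the SD for 3 of 9 members and for 45.7% of all tested genes. Myc, Nr4a1 and Jun were again the members above 2 with RLE (another scaling), TMM without mitochondrial-encoded features and the authors' normalised values. Over these 3 the ratio was 2.12 to 2.21 for Jun and 1.92 to 1.96 for Egr2. The set of members above 2 differed with library size alone and without some single libraries. With library size alone the ratio was 1.39 for Nr4a1, 2.38 for Ier2 and 2.45 for Egr2. That of Egr2 was 2.93 without control 1 and 2.43 without knockout 3, and that of Jun 1.83 without knockout 1 and 1.74 without knockout 3. The Fos ratio was 1.58 without control 1, the Fosl2 ratio 1.503 without control 2 and the Ier2 ratio 1.63 without knockout 3.

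**Figure D2:**
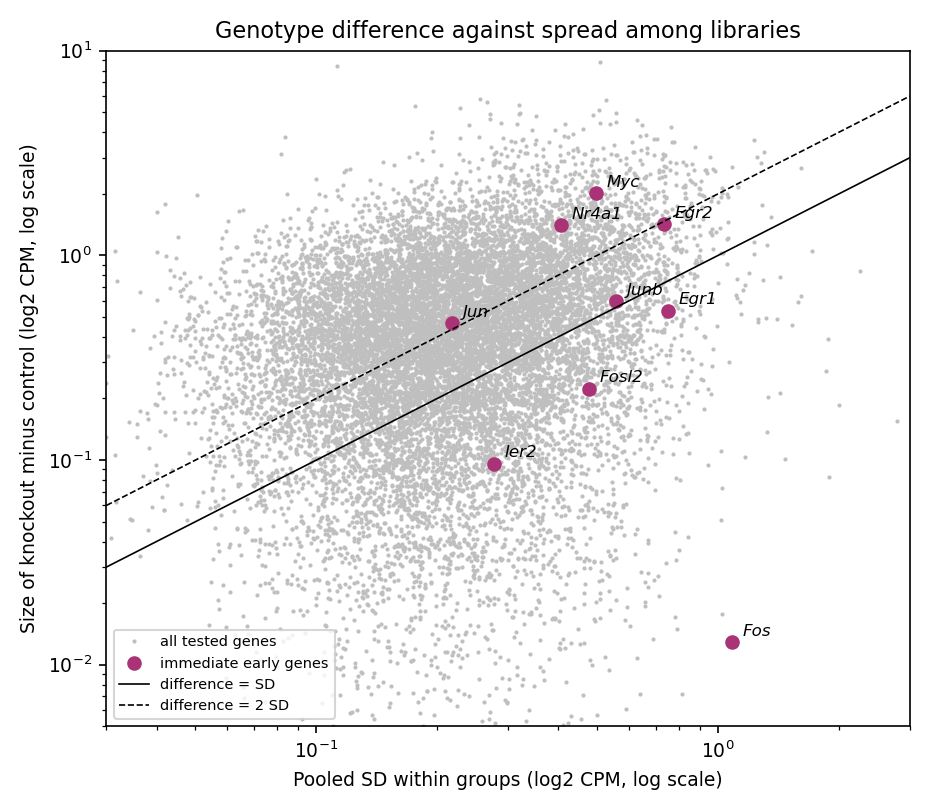
Size of the knockout minus control difference in log2 CPM against the pooled SD within groups, both on log axes, for all tested genes within the axes (grey) and the 9 tested members (purple). The solid line marks a difference of 1 SD and the dashed line 2 SD, and Myc, Nr4a1 and Jun are the members above the dashed line.

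A part of the spread comes from counting few reads, which the biological coefficient of variation of edgeR leaves out. That coefficient was 0.49 for Fos, 0.36 for Egr2, 0.32 for Egr1, 0.26 for Myc, 0.25 for Junb, 0.23 for Fosl2 and 0.20 for Nr4a1. Each of these was above the trend fitted to genes of the same level, from 1.44 times for Nr4a1 to 2.87 times for Fos. Jun and Ier2 were at 0.97 and 0.96 times the trend. So 7 of 9 members were above the trend, where 28.7% of all tested genes were. Fos was at the 99.8th percentile of all tested genes by this ratio and Egr1 at the 98.0th.

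**Figure D3:**
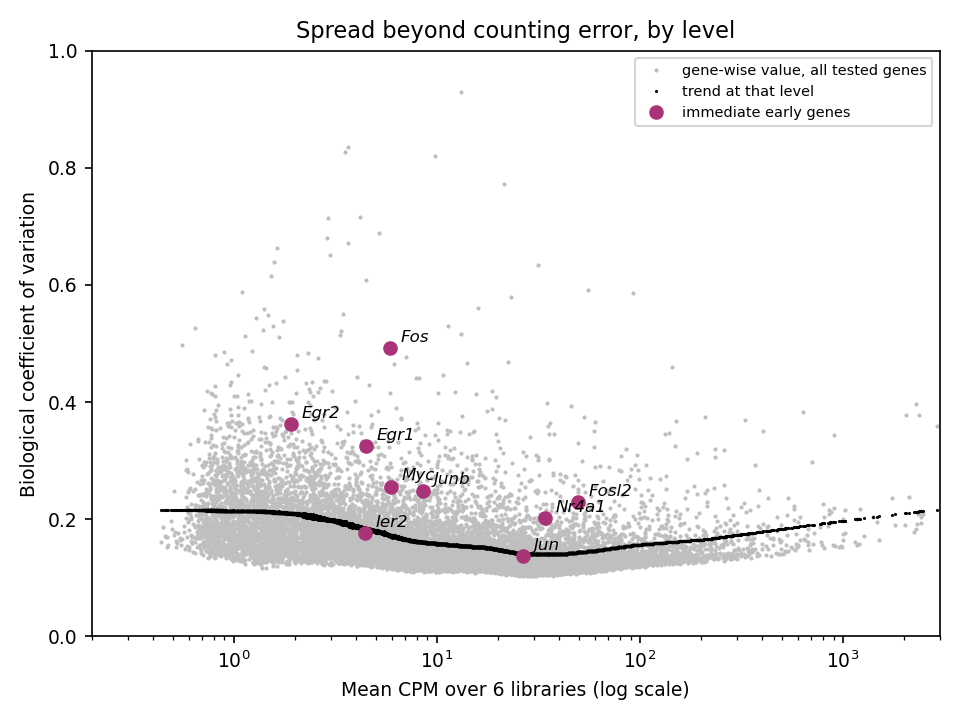
Biological coefficient of variation of each tested gene against its mean CPM (log axis), with the fitted trend in black and the 9 members in purple. Fos, Egr2 and Egr1 lie far above the trend, and Jun and Ier2 lie on it.

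The share of the variance of log2 CPM over the 6 libraries that lay between the genotypes was 86.0% for Myc. It was 81.7% for Nr4a1, 63.3% for Jun and 58.3% for Egr2. For Junb it was 30.1%, for Egr1 16.1%, for Fosl2 7.59%, for Ier2 4.33% and for Fos 0.0053%. The median was 30.1% for the members and 54.6% for all tested genes. With 3 libraries in each group this share follows from the ratio above, so it is the same result on another scale. A share above 0 also arises where genotype has no effect. For Myc, Nr4a1 and Jun the two-sided exact permutation test over libraries gave p = 0.1, the smallest that 3 against 3 allows. Groups that do not overlap give this p by construction, and 50.6% of all tested genes had such groups. Single libraries set some of these values. Without control 1 the pooled SD of Fos was 0.50 in place of 1.08, and without knockout 3 that of Egr1 was 0.32 in place of 0.75. Without control 2 that of Nr4a1 was 0.17 in place of 0.41 and its ratio 10.3, and that of Junb was 0.29 in place of 0.56. Over the 9 members the median ratio was 1.80 without control 1 and 1.63 without knockout 3.

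The members deviated from their group means in the same libraries. Control 1 had the highest level among controls for 6 of 9 members and control 2 the lowest for 7 of 9, with mean deviations of 0.45 and -0.48 in log2 CPM. Among the knockouts, knockout 1 was the highest for 5 of 9 and knockout 3 the lowest for 7 of 9, with mean deviations of 0.35 and -0.38. Deviations over the 6 libraries were positively correlated for 29 of the 36 pairs of members, or 27 of 28 without Jun. The highest Pearson correlation was 0.97, between Junb and Nr4a1. Against the mean of the other members it was 0.89 for Egr2, 0.81 for Junb, 0.78 for Fos and 0.06 for Jun. The count without Jun leaves out the member least correlated with the others. These are descriptions over 6 libraries whose deviations sum to 0 in each group, and the genes share each library's scaling. No such counts over all tested genes are given here, so the pattern is not shown to be particular to the members.

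**Figure D4:**
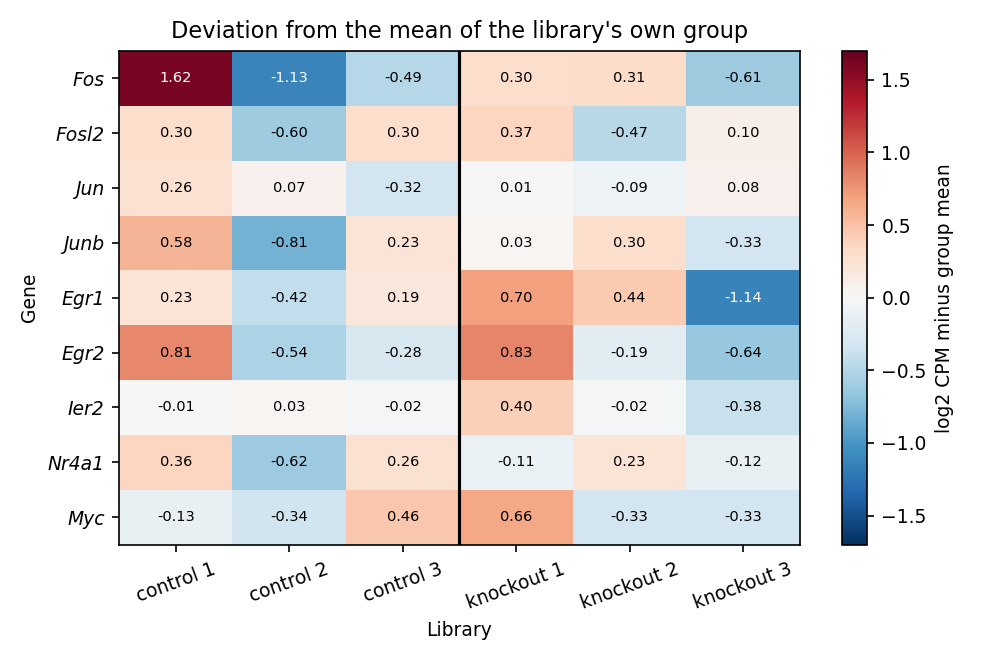
Deviation of log2 CPM from the mean of the library's own group for the 9 tested members, with red above and blue below the mean. Control 2 and knockout 3 are mostly blue, and control 1 and knockout 1 mostly red, with Jun and Ier2 near 0 in several libraries.

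Some other measures of the libraries also differed within groups. The mitochondrial share of counts was 49.3%, 61.1% and 58.5% in controls 1, 2 and 3 and 33.3%, 34.7% and 36.7% in knockouts 1, 2 and 3. In both groups the library with the highest share was the one lowest for most members. Total counts were 14276410, 12553384 and 12057962 in the controls and 14461110, 13641345 and 9850100 in the knockouts, so the deepest library of each group was the one highest for most members. The 5 atrial markers summed to 1417, 346.6 and 1469 CPM in controls and 3374, 4845 and 3399 CPM in knockouts, with none at 0 in all libraries. The higher sum in knockouts came from Nppa, the natriuretic peptide gene, at 751, 193 and 811 CPM in controls and 2945, 4577 and 2966 CPM in knockouts, the 1 of 5 that was called. The other 4 had log2 fold changes of -0.92 to -0.04 and did not pass the test. Atrial Bmp10 was at 0.445 CPM in control 2 against 115 and 186 in the other controls, and at 7.37 CPM in knockout 2, against 145.9 and 84.8 in the other knockouts. Control 2 was thus low for the atrial markers and for most members, but among the knockouts the order of the atrial markers was not that of the members. The 5 erythroid markers summed to 520, 1173 and 1788 CPM in controls and to 1693, 1435 and 2934 CPM in knockouts, with 1 of 5 called higher and none at 0. The lowest erythroid control was control 1, the highest for most members. The highest was control 3, whose mean deviation over the members was 0.04, and the highest knockout was knockout 3. Deviations of the summed markers had Pearson correlations with the members' mean deviation of 0.68 for atrial and -0.64 for erythroid markers. Nppa was the largest part of the atrial sum in each library, so the atrial value rests largely on 1 gene. For the other marker lists these ran from -0.40 to 0.17. The part of each of these in the deviations was not tested.

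The 5 other genes whose deviations were most like the members' mean, among 1492 with a mean of at least 5 CPM and a pooled SD of at least 0.3, were Ptk7, Chac1, Gadd45g, Dio2 and Per1. Their Pearson correlations over the 6 libraries were 0.99, 0.98, 0.98, 0.98 and 0.97. As the highest of 1492, values this near 1 follow in part from the choice itself. Gadd45g and Per1 are themselves early response genes and belong to the lists below. Gadd45g was at 8.28, 3.44 and 6.04 CPM in controls and 16.5, 9.70 and 6.04 CPM in knockouts. Dio2, a deiodinase that activates thyroid hormone, was at 7.22, 2.78 and 4.88 CPM in controls and 22.5, 12.5 and 10.3 CPM in knockouts. Both had control 2 and knockout 3 as the lowest library of their group, which the choice of genes by this correlation brings about. Of the 5, Chac1, a glutathione-degrading enzyme, and Dio2 were called higher, by 2.50 and 1.58 (edgeR adjusted p = 5.52e-05 and 0.00682).

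Within gene families, levels were compared per kb of exon. In the FOS family Fosl2 had 5.55 ± 1.77 and 4.69 ± 1.32 CPM per kb in controls and knockouts (SD, n = 3 each), Fos 2.91 ± 3.03 and 2.11 ± 0.699, and Fosb 0.216 ± 0.145 and 0.0590 ± 0.0133. In the JUN family Jund, which is not a member, led with 12.3 ± 1.33 and 21.4 ± 2.50, ahead of Jun at 7.04 ± 1.40 and 9.63 ± 0.563 and Junb at 3.07 ± 1.36 and 4.39 ± 0.948. The share of Egr2 in the summed level of the EGR family was 18.0 ± 6.39% in controls and 46.3 ± 9.36% in knockouts, and that of Egr1 was 75.8 ± 6.99% and 45.5 ± 9.67%. Neither share overlapped between the groups (two-sided exact permutation p = 0.1 for each, the smallest possible). Egr1 and Egr2 made up most of the sum, so their shares mirror each other and are 1 result. The control share of Egr2 rested on 22, 5 and 6 reads. Nr4a1 led its family at 14.2 ± 4.70 and 5.15 ± 0.740 CPM per kb, followed by Nr4a3 at 5.74 ± 0.251 and 1.10 ± 0.0992. The share of Nr4a1 was 68.9 ± 7.16% in controls and 79.7 ± 2.41% in knockouts, so it rose while the level fell. Within the MYC family, Myc had 53.7 ± 12.8% of the summed level in controls and 85.7 ± 3.76% in knockouts, and the share did not overlap between groups (two-sided exact permutation p = 0.1). The level of Mycn was 0.595 ± 0.159 and 0.441 ± 0.0258 CPM per kb, that of Myc 0.815 ± 0.262 and 3.56 ± 1.54, and the share of Mycn 39.6 ± 9.71% and 11.6 ± 3.27%.

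**Figure D5:**
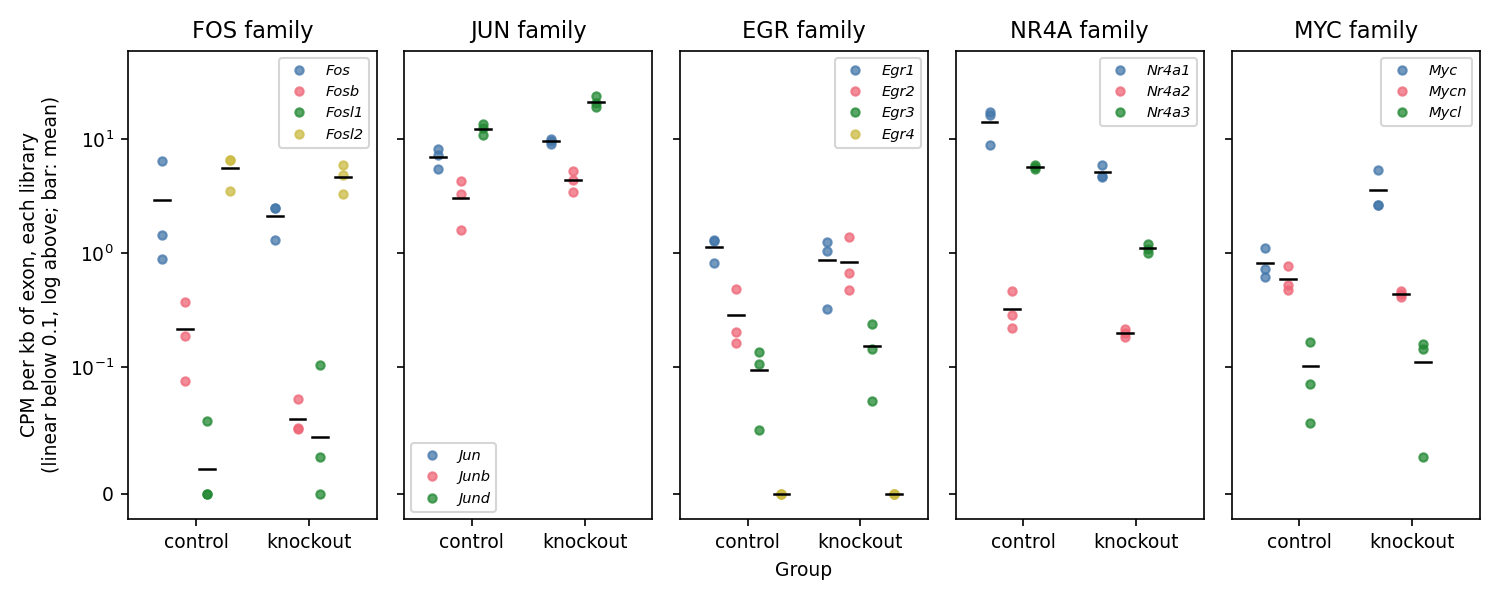
Level per kb of exon of each gene of 5 families, with 1 point per library and a black bar at the group mean, on an axis that is linear below 0.1 and logarithmic above. Nr4a1 and Nr4a3 lie lower and Myc higher in knockouts, and the highest Fos point of the controls is 7.13 times the lowest.

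Nr4a3, another gene of the NR4A family, fell more and varied less than Nr4a1. It was at 34.3, 32.9 and 35.9 CPM in controls and 7.22, 6.50 and 6.04 CPM in knockouts, a fall of 2.38 on the log2 scale (SE 0.13, edgeR adjusted p = 3.61e-06). The pooled SD was 0.10, against 0.41 for Nr4a1, and control 2 was not set apart. It belongs to a list of 17 other early transcription factors, of which 15 were tested, 3 were higher and 1 was lower, against 18.7% and 17.8% of all tested genes. The median log2 fold change was 0.15 against -0.01 for all genes. The higher ones were Ier5 at 1.53 (SE 0.17), Cebpb at 0.85 (SE 0.19) and Klf6 at 0.68 (SE 0.14). The higher genes numbered 5 without control 1 or knockout 1 and with no filter, and the lower ones 2 without control 1 and with no filter. Over this and the other 7 lists described next, 26 genes were higher and 15 lower. The share of their tested genes that was called was near the 36.5% over all tested genes. With library size alone 68 were higher and 3 lower, where the median log2 fold change of all tested genes was 0.68.

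AP-1 partners outside the member set were higher for 5 of 8 tested, or 3 without control 3, and lower for 0, or 1 without knockout 1 or with the stricter filter, with a median of 0.55. The all-gene shares were 18.7% and 17.8%. Atf4, the main factor of the integrated stress response, rose by 2.85 (SE 0.14), Atf3 by 1.32 (SE 0.24), Jund by 0.79 (SE 0.13) and Mafk by 0.66 (SE 0.16), the last call being lost without control 3 (edgeR adjusted p = 0.0515). Atf3 resembled the members in having control 2 as its lowest library, at 10.6 CPM against 22.3 and 13.7. Their median pooled SD was 0.17, below the 0.50 of the members.

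Of 20 feedback regulators of the early response tested, 2 were higher, 2 were lower and 16 did not pass the test, fewer calls than the 36.5% over all genes, with a median of -0.21. With no filter or with DESeq2 4 were higher. The MAP kinase phosphatase gene Dusp4 rose from 1.52 ± 0.529 to 24.3 ± 5.89 CPM (SD, n = 3 each, log2 fold change 3.94, SE 0.27), and Dusp6 by 0.67 (SE 0.17). The G protein regulator Rgs2 fell by 1.71 (SE 0.30), and the kinase Sik1 by 0.87 (SE 0.14), a call lost with library size alone (-0.18). Among secreted and effector genes 3 of 15 were higher, near the 18.7% over all genes, and 0 were lower, with a median of 0.30. The higher ones numbered 6 without knockout 3, 7 with no filter and 5 with DESeq2, and the lower ones 2 without knockout 1. Ctgf, a matricellular protein gene, rose from 69.9 ± 17.6 to 398.5 ± 232 CPM. Cyr61, another matricellular protein gene, rose by 1.80 (SE 0.29). Their median pooled SD of 0.63 was the highest of the lists, and knockout 1 was the highest library for Ctgf, at 662 CPM against 309.5 and 224.

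Upstream factors, the serum response and CREB factors and the kinases that act on them, varied little within groups, with a median pooled SD of 0.16. Of 21 tested 3 were higher and 5 lower, near the all-gene shares of 18.7% and 17.8%, with a median of -0.26. The higher ones numbered 0 without control 2 or knockout 2 and 1 without control 3 or knockout 3 or with the stricter filter. The stress kinase gene Mapk14 fell by 0.60 (SE 0.10), Map3k1 by 0.64 (SE 0.13), the muscle factor Mef2d by 0.73 (SE 0.14) and the serum response cofactor Mkl2 by 0.54 (SE 0.13). All 4 calls were lost with library size alone, where Mapk14, Map3k1 and Mkl2 turned to 0.09, 0.06 and 0.16. Of 5 cofactors of NR4A and EGR proteins 2 were lower and 0 higher, against 17.8% and 18.7% of all tested genes. The lower ones were Rxra, by 0.68 (SE 0.14), and Nab1, by 0.41 (SE 0.13). They numbered 1 without any 1 library other than knockout 1, since the Nab1 call was then lost. The Nab1 call was also lost with no filter and with DESeq2 (adjusted p = 0.120 and 0.133). Both calls were lost with library size alone, where Nab1 turned to 0.29 and Rxra to 0.0026.

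In the MYC network list 4 of 12 tested genes were lower and 2 higher, against 17.8% and 18.7% of all tested genes, with a median of -0.21. The higher ones numbered 0 without control 2, control 3 or knockout 2 and 1 without control 1 or knockout 3 or with DESeq2. Max, the obligate partner of MYC, fell from 27.1 ± 3.02 to 15.1 ± 1.71 CPM (log2 fold change -0.85, SE 0.14, edgeR adjusted p = 0.00126). The MAX-binding repressor gene Mnt fell by 1.07 (SE 0.26), Mlxip by 0.89 (SE 0.17) and Fbxw7, which marks MYC for breakdown, by 0.61 (SE 0.12). All 4 calls were lost with library size alone, where Fbxw7 turned to 0.07, and that of Mnt also without control 3. Of 20 MYC target genes 8 were higher and 1, Tfrc, was lower, against 18.7% and 17.8% of all tested genes, with a median of 0.46. The lower ones numbered 3 without knockout 1 and 2 without knockout 2 or with the stricter filter. The polyamine enzyme gene Odc1 rose from 34.4 ± 6.22 to 110.7 ± 9.72 CPM, and the nucleolar protein genes Nop58 and Npm1 rose by 1.63 (SE 0.11) and 1.19 (SE 0.11). The translation factor gene Eif4a1 rose by 1.06 (SE 0.12). Their spread was small, with a median pooled SD of 0.22, equal to that of all tested genes at this rounding.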

How the data were processed

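RNA of 3 control and 3 knockout hearts was sequenced as paired-end TruSeq libraries, per the labels' protocols. The submitters' processing notes list mm10, DESeq2 1.16.1, featureCounts 1.5.1, SAMtools 1.5 and HISAT2 2.0.5, with neither role nor options. The authors deposited whole-number counts per gene, in 1 column per mouse (the labels name 4 technical replicates each, and how they were merged is not stated), and a signal equal to those counts divided by 1 size factor per library. The authors also deposited their own comparison, as log2 changes and their errors, p-values and a Wald-type score without fixed range.

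Counts were tested with edgeR 4.0.16 in R 4.3.3, with TMM scaling, filterByExpr (minimum count 10) and no block, after the test was tried on simulated data. The SE is the size of the log2 fold change divided by the square root of F, and 95% intervals use it with the degrees of freedom of the fit. Log2 CPM used a prior count of 2. Coordinates and exon lengths came from GENCODE M21 (GRCm38, the same build as mm10). Chi-square divided by its degrees of freedom was 8.93 or more between libraries of 1 group, more than counting noise gives. Alternatives were other scalings, filters, tests (DESeq2 1.42.0, limma-voom of limma 3.58.1), prior counts and thresholds, each library left out, a replicate block and the authors' values.

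The members and lists were chosen with earlier results of these data known. The named genes are all members, Elac2, up to 4 called genes with the smallest adjusted p from each list (1 gene with the smallest p where none is called), and the 5 genes most like the members' mean deviation. Tfrc, Prdx2, Junos, Bmp10, Nppa, Ckm and relatives named for family levels were added after their values were seen. A gene that this rule names is not reported here.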

Additional observations from a re-analysis of the deposited data

How the results depend on the processing

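Myc and Nr4a1 were called in the same direction under each alternative run. With library size alone 5 members were called higher, the added ones being Junb and Ier2, with 8093 genes higher and 552 lower in all, 68 list genes higher and 3 lower, and a median ratio of genotype difference to within-group SD of 1.95. There Fos, Fosl2 and Egr1, not called, turned to 0.079, 0.43 and 0.32. An adjusted p under 0.01 left 1 member higher, 1591 genes higher, 1415 lower and 17 list genes higher. With no filter 4 members were higher, Junb being added, in a fit that gave far smaller p-values for most named genes. With no filter, with DESeq2 and in the authors' deposited comparison, 2 members were lower, Nr4a1 and Fosb. When each library was left out in turn, there were 1 to 3 members higher and 1 to 2 lower, 1899 to 2903 genes higher and 1795 to 2934 lower, 20 to 28 list genes higher and 12 to 23 lower (23 without knockout 1), a median pooled SD of 0.35 to 0.53 and a median ratio of 0.94 to 1.80. Fos ran from -0.91 without control 2 to 0.88 without control 1, Egr1 from -0.69 without knockout 1 to 0.0039 without knockout 3, and Ier2 from -0.082 without knockout 1 to 0.32 without knockout 3. The cause of these changes was not tested. Where 2 members were lower with 1 library left out, Fosb was the added one, in fits that kept controls 1 and 3. With the replicate block 2 members were higher, without Jun (edgeR adjusted p = 0.0654), and 1 lower, with 2178 genes higher and 2115 lower. Of the lists, the other early transcription factors then had 5 higher and 2 lower, the upstream factors 1 higher, the MYC network 0 higher and the cofactors 1 lower, without Nab1 (adjusted p = 0.081). The labels do not say that numbers pair the mice. The pairing check gave correlations of -0.198, 0.085 and -0.087 between deviations of libraries with the same number, and not every library correlated best with its own number. Low counts, as for Fosb and the Egr2 controls, limit the precision of those values.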
